A study of Drosophila melanogaster with 3 samples.

Results

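Of the 3684 regions that passed the irreproducible discovery rate (IDR) procedure in this data set, 593 (16.1%) had their summit close to the starts of 2 protein-coding genes on opposite strands. A region was counted where its summit lay within 500 bp of a plus-strand transcript start and within 500 bp of a minus-strand start of another gene, in the Ensembl gene models. These 593 regions are called pair peaks here, and each was assigned the pair of starts nearest to its summit. The 1048 peaks within 500 bp of a coding start without a start of another gene on the other strand are called one-way promoter peaks, and the remaining 2043 had no coding start within 500 bp. Pair peaks therefore made up 36.1% of the 1641 promoter peaks. They belonged to 555 gene pairs and 1108 genes, since 36 pairs held 2 peaks and 1 pair, Elp6/Dic1, held 3. Of the pair peaks, 76 overlapped another IDR peak, and such overlapping peaks can share 1 region in a replicate.

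The data came from chromatin immunoprecipitation and sequencing (ChIP-seq) of whole Drosophila melanogaster embryos, a mix of both sexes collected from 0 to 24 hours, so every tissue and stage of embryogenesis was pooled. All samples were of 1 genotype, a transgenic line that expresses isoform RA of chif with green fluorescent protein at its C terminus, and an antibody against that tag was used. The labels describe 3 biological replicates, and no untagged or input library was analysed here. The deposited region lists carry a signal value with no stated scale, so values are compared only within a list, and without read counts the depth of the libraries is unknown.

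Chiffon, the product of chif, is related to Dbf4, the protein that activates the replication kinase Cdc7, and another part of it binds the histone acetyltransferase Gcn5. In a divergent promoter the genes point away from a shared upstream stretch, so a single nucleosome-depleted region can serve both starts. Such arrangements are frequent in the compact fly genome and often hold housekeeping genes, whose promoters carry elements such as the DRE, the binding sequence of the factor Dref.

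The stretches between the starts of 6 pairs show what lies under these peaks. The pairs Art3/mRpS10, Tcs5/CHMP2B and Atat/Shc were chosen because their strong peaks had the summit close to the middle of the stretch, Chro/Ssl1 because its peak was the strongest of all 593, and RpS27/Nup37 and RpS25/CG4820 because the summit lay beside the ribosomal protein gene. The stretches lie at chr3R:15229409-15229664, chr3L:5139396-5139618, chr3L:9426759-9427009, chr3L:22878985-22879088, chr3R:25247515-25247657 and chr3R:11216288-11216534. They are written 5′ to 3′ on the plus strand of the dm6 assembly, from the RefSeq copy of the genome, and no transcript of the gene models covers them. Capitals mark matches on either strand to the DRE core ATCGATA, the DRE palindrome TATCGATA, the shorter CGATA bound by BEAF-32, the E-box CAGCTG, Motif 1 GGTCACACT, Motif 6 GGTATTTT, Motif 7 CAGCNCT or the GAGA repeat GAGAGAG. The shorter motif lies inside both forms of the DRE, so these matches overlap.
Art3/mRpS10: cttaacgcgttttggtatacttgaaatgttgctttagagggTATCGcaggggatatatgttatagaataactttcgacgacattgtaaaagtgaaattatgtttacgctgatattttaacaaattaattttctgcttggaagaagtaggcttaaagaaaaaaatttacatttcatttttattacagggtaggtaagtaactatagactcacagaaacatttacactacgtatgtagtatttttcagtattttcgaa
Tcs5/CHMP2B: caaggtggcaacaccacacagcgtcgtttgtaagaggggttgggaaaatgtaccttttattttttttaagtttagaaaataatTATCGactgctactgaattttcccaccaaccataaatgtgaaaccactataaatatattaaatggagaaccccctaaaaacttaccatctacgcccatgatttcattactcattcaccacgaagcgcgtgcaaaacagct
Atat/Shc: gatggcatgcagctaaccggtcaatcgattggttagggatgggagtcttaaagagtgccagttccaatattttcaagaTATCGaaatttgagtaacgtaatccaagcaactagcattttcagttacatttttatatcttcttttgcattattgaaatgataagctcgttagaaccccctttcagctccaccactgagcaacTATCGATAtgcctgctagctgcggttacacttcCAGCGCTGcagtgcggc
Chro/Ssl1: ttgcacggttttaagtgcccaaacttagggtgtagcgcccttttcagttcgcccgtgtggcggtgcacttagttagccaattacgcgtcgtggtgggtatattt
RpS27/Nup37: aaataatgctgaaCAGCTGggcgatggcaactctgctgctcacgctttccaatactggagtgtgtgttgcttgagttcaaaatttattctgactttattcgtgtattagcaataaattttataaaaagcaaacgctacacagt
RpS25/CG4820: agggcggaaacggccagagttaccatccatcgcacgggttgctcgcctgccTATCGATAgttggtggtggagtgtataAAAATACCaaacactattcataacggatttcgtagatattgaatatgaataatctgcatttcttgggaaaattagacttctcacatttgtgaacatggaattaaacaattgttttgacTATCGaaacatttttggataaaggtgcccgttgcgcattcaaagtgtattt
The summit fell at base 111 of the Art3/mRpS10 stretch, base 103 of Tcs5/CHMP2B, base 134 of Atat/Shc, base 11 of RpS27/Nup37 and base 52 of RpS25/CG4820, counted from the first base printed, whereas that of Chro/Ssl1 lay outside its stretch. The Atat/Shc and RpS25/CG4820 stretches each held a DRE palindrome, the former also held Motif 7 near its end and the latter Motif 6, and the Chro/Ssl1 stretch held no match.

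The 20 strongest pair peaks had signal values from 647.2 to 1408.9, and all 20 overlapped the highest 3684 regions of each replicate. None ranked below 92 among the 30000 regions of any replicate, and the summits of the replicates lay at most 51 bp from the IDR summit. The peak at Chro/Ssl1 had a signal value of 1408.9 and ranked 6, 9 and 11 in replicates 1, 2 and 3. Chro encodes Chromator, a chromodomain protein of the interbands of polytene chromosomes, and Ssl1 a subunit of the general transcription factor TFIIH. Their starts were 105 bp apart and the summit lay 99 bp inside Chro. The peak at Art3/mRpS10, a protein arginine methyltransferase and a mitochondrial ribosomal protein, had a signal value of 1387.8 and ranked 10 in all 3 replicates. It lay 111 bp from the Art3 start and 146 bp from the mRpS10 start.

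The next pairs joined genes of various functions. mRpS23, a mitochondrial ribosomal protein, shared a stretch of 492 bp with CenG1A, a regulator of Arf GTPases, and the peak of 1186.5 ranked 18, 16 and 16. Tcs5, a kinase of the KEOPS complex that modifies transfer RNA, and CHMP2B, an ESCRT-III subunit, had starts 224 bp apart and a peak of 1102.7 that ranked 19, 15 and 26. Fbw5, an F-box protein, and CG9147 had a peak of 1000.6 that ranked 38, 21 and 24, with its summit 2 bp from the CG9147 start. These 3 peaks stayed within rank 38 in every replicate. Atat, the alpha-tubulin acetyltransferase, and Shc, an adaptor of receptor tyrosine kinases, had a peak of 947.1 that ranked 15, 44 and 46, so replicate 1 placed it higher than the other replicates did.

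The remaining pairs among the 20 were CG5757/CG5098, Pdrg1/Pal1, Pex11ab/CG8320, CG8372/CG8360, CG11309/CG7632, tank/CG12194, Stt3A/bves, Ripalpha/RpL7, Mkk4/SLIRP2, Mnat9/CG1792, CG7601/CIA30, RpS27/Nup37, Lon/PIG-F and Fur1/Vps33B. Their products include a peroxin (Pex11ab), the catalytic subunit of oligosaccharyltransferase (Stt3A), a MAP kinase kinase (Mkk4), a complex I assembly factor (CIA30), a mitochondrial protease (Lon) and a furin protease (Fur1). Of the 20 summits, 13 lay between the starts and 7 inside a gene. In the 6 pairs whose starts were 200 to 300 bp apart, the summit lay within 17.5 bp of the midpoint, 103 to 159 bp from either start.

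**Figure D1:**
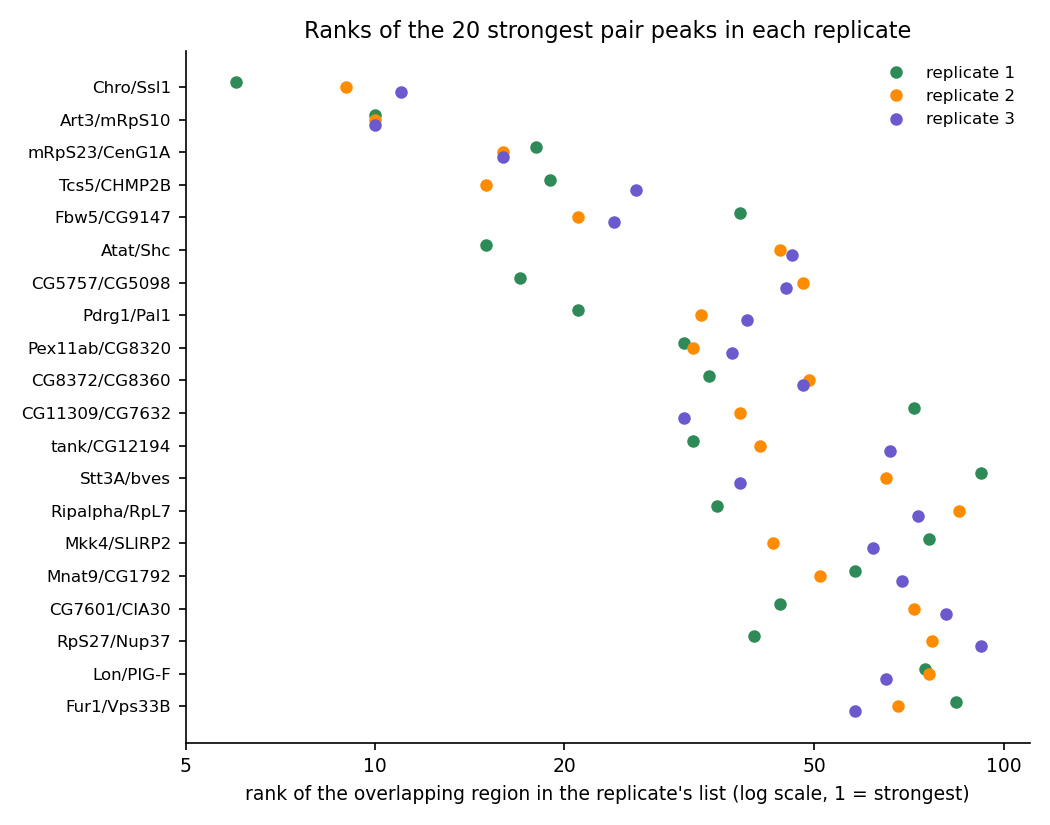
Rank (horizontal axis, log scale, 1 is the strongest) of the region that overlaps each of the 20 strongest pair peaks, with 1 point for each of the 3 replicates and pairs ordered by signal value. All points lie between rank 6 and rank 92, and the replicates stay close together for Art3/mRpS10, at rank 10 in each.

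Over all 593 pair peaks the signal value ran from 92.4 to 1408.9 with a median of 155.2 and quartiles of 121.2 and 233.25. The median was 148.1 for one-way promoter peaks and 139.6 for peaks without a coding start. Pair peaks made up 27 of the 100 strongest IDR peaks, 17.5% of the next 400, 17.8% of the next 500, 18.3% of the 1000 after these and 13.3% of the last 1684. Their share was thus highest at the top of the list and lowest at its end. One-way promoter peaks also had higher shares near the top, 34%, 36%, 28.4%, 26.1% and 27.7% of the same steps. Among the 20865 pooled regions that overlapped no IDR peak, 827 (3.96%) met the same rule. Fewer of these regions lay near any coding start. Of the 4687 that did, 17.6% met the rule, against 36.1% of IDR promoter peaks. When the rule was applied to the 3684 highest regions of each replicate, it found 566, 609 and 522 regions, a mean of 15.4% ± 1.18 (SD, n = 3). In the remaining regions of the same replicates it found 1.74%, 4.31% and 4.34%.

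Most pair peaks were recovered by every replicate. Of the 593, 405 (68.3%) had a counterpart among the highest 3684 regions of all 3 replicates, 132 among those of 2 and 52 among those of 1. The 4 that overlapped none were CG5742/adp, SMSr/smid, exu/galla-1 and CG5645/Atg12, with signal values from 93.1 to 97.1 at the end of the list. Of the peaks missing from 1 replicate alone, 56 were missing from replicate 1, 20 from replicate 2 and 56 from replicate 3. Recovery differed with signal: 322 of the 339 pair peaks in the stronger part of the IDR list (95.0%) were recovered by all 3 replicates, against 83 of the 254 in the weaker part (32.7%). The parts are the upper and lower 1842 ranks. Of one-way promoter peaks 633 of 1048 (60.4%) were recovered by all 3. The IDR procedure itself used these replicates, so recovery is partly built into the list.

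Within each replicate, pair peaks were set against one-way promoter peaks. The exact sign-flip permutation test over 3 replicates, two-sided, cannot give a p below 0.25, so no difference over the replicates could reach the usual threshold. Each replicate's regions were ranked by signal, and the rank was expressed as a percentage of its 3684 highest regions. The median rank of pair regions was 36.2%, 45.4% and 46.0% in replicates 1, 2 and 3, against 41.4%, 47.5% and 50.4% for one-way regions. Pair regions thus ranked higher (closer to 0) in every replicate, by a difference of -3.87 percentage points ± 1.59 (SD, n = 3, exact p = 0.25). When each list was restricted to its stronger part, the difference was 0.190 percentage points in the opposite direction (exact p = 0.75), and with a promoter window of 250 bp it was -10.9. The share of pair peaks found among a replicate's highest regions was 84.3%, 90.9% and 83.0%, against 76.6%, 84.4% and 82.3% of one-way peaks. That difference was 4.92 percentage points ± 3.78 (SD, n = 3, exact p = 0.25), and in replicate 3 it was 0.621. Counting a region of any rank in a replicate as recovery, it was 1.00.

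The sequence under pair regions held less G and C than that under one-way promoter regions. Mean GC content within 100 bp of the summit was 36.4%, 35.8% and 36.3% in replicates 1, 2 and 3, against 39.9%, 37.99% and 38.6% at one-way promoter regions. All 3 replicates gave the same direction, and the difference was -2.68 percentage points ± 0.749 (SD, n = 3, exact p = 0.25). Regions without a coding start had 41.1%, 36.3% and 36.6%, so in replicates 2 and 3 their GC was close to that of pair regions. Low GC was shared by gene pairs with no peak: the sequence within 100 bp of the midpoint of the starts had a mean GC of 34.1% in 2069 divergent pairs without an IDR summit and 33.5% in 598 pairs with one. Lower-ranked regions at gene pairs had 39.6%.

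**Figure D2:**
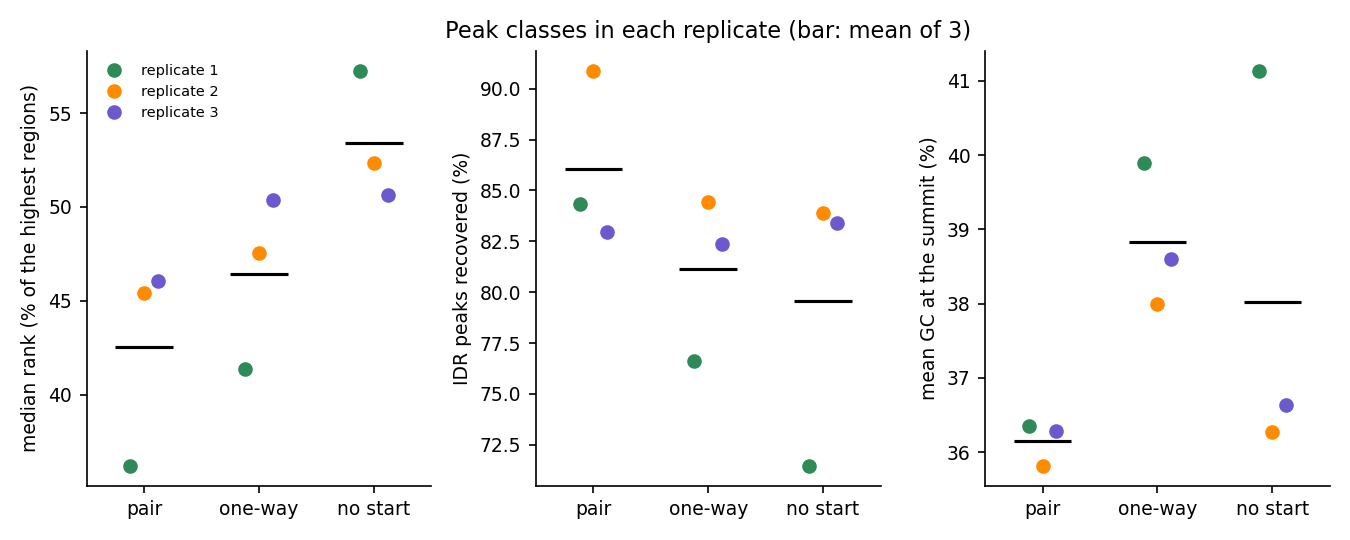
For pair, one-way promoter and no-start peaks, the panels give the median rank as a percentage of each replicate's highest regions (0 is the strongest), the percentage of IDR peaks recovered, and the mean GC within 100 bp of the summit; points are the 3 replicates, bars their mean, and the vertical axes do not start at 0. Pair peaks have the lowest GC and the lowest median rank in each replicate, while recovery in replicate 3 differs little between the classes.

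In 585 of the 593 pair peaks the genes pointed away from each other, and in 8 their transcribed parts overlapped at the starts. The strongest of the 8 was CG4741/Adck1, with starts that overlapped by 141 bp (a spacing of -141), a signal value of 646.8 and recovery in all 3 replicates. For the 585 divergent pairs the spacing of the starts had a median of 284 bp and quartiles of 211 and 369.5 bp. The closest starts were those of dpa, the replicative helicase subunit Mcm4, and didum, myosin V, at 2 bp, where the peak of 241.7 ranked 687, 657 and 924. The most distant were CG2246 and CG31021 at 717 bp, with a peak of 133.1.

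The summit lay between the starts in 499 of the 585 (85.3%), inside the minus-strand gene in 48 and inside the plus-strand gene in 38. The nearer start was a median of 77 bp away (quartiles 43 and 119) and the farther one 213 bp (quartiles 149 and 297). The summit lay within 50 bp of the midpoint of the starts in 228 (39.0%) and within 100 bp in 395 (67.5%), with a median distance of 68.5 bp. It was nearer the plus-strand start in 297 and nearer the minus-strand start in 287, and in 1 at the midpoint. The replicates' own summits at these peaks lay between the starts in 85.1%, 84.4% and 83.1%, a mean of 84.2% ± 1.03 (SD, n = 3). In replicates 1, 2 and 3 they lay a median of 19.5, 11 and 18 bp from the IDR summit. Their regions were picked by overlap with the pair peaks, and the IDR list was made from the same replicates. This closeness is thus partly built in. Of the IDR summits, 515 (86.8%) were the centre of their region to within 1 bp, and the labels give sonicated fragments of 200 to 800 bp. Both limit how finely a position can be read.

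The position moved with the spacing. Pairs were binned by spacing, each bin without its lower bound. Where the starts were up to 50 bp apart, 2 of 18 summits lay between them, and the nearer start was a median of 63.5 bp away. From 50 to 100 bp the share between was 41.9%, from 100 to 150 bp 65.1%, from 150 to 200 bp 87.0% and from 200 to 250 bp 90%. Beyond 350 bp it was 100%, in part because a summit must be within 500 bp of both starts. The median distance to the nearer start was 66.5 bp at 200 to 250 bp, 102 bp at 400 to 450 bp and 174 bp at 500 to 600 bp. In the same bins the median distance to the farther start was 164, 331 and 370 bp, and that from the midpoint 48, 107 and 99.5 bp. Summits spread evenly between the starts would also lie farther from the midpoint as the spacing grows. Whether the summits preferred a position between the starts was not tested.

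**Figure D3:**
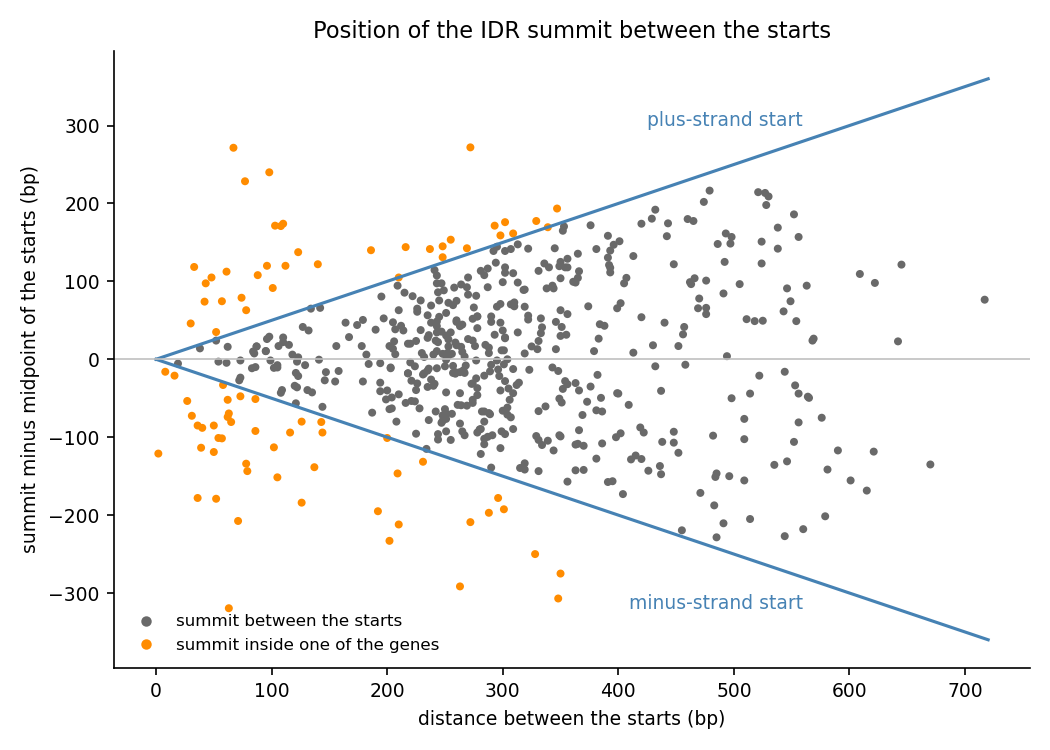
Each point is 1 of the 585 divergent pair peaks, with the distance between the starts on the horizontal axis and the summit's distance from their midpoint on the vertical axis, both in bp; the blue lines are the starts. Dark points are the 499 summits between the starts, orange points the 86 inside a gene, most of them at spacings up to 150 bp.

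Lower-ranked regions at divergent pairs were placed differently. Of 796 such regions in the pooled list, 62.9% had their summit between the starts, with a median distance from the midpoint of 102.5 bp and a spacing of 274 bp. These pooled regions overlapped no IDR peak by choice. At a pair with an IDR peak between the starts they could lie only to its side, so part of this difference is built in. Within each replicate, the highest regions were between the starts in 84.6%, 84.3% and 79.7%, against 69.2%, 58.9% and 59.6% of the remaining regions. The difference had the same direction in all 3 replicates, 20.3 percentage points ± 5.02 (SD, n = 3, exact p = 0.25). Highest and remaining regions are separate entries of the same replicate's list. At a pair that holds both, their positions are not independent, so part of this difference may be built in as well. How large that part is was not tested. By signal within the IDR list, summits between the starts had a median of 153.9 and those inside either gene 168.3.

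Peaks covered part of all such gene pairs. The gene models hold 2667 pairs of coding genes that point away from each other with starts 1 to 1000 bp apart, and 598 of them (22.4%) had an IDR summit within 500 bp of both starts. A pair was counted here whether or not it was the pair nearest to the summit. By spacing, 22.0% of 786 pairs at up to 200 bp and 34.7% of 942 pairs at 200 to 400 bp had such a summit. The replicates gave 21.4%, 23.0% and 21.0% at the closer spacing and 33.9%, 35.5% and 31.6% at the wider, a difference of 11.9 percentage points ± 1.05 (SD, n = 3, exact p = 0.25). These bins were chosen after their values were seen, and with a window of 250 bp the difference was 6.29 percentage points. Between neighbouring bins, 17.4% of 149 pairs at 150 to 200 bp and 38.8% of 242 pairs at 200 to 250 bp had a summit. The replicates gave 18.1%, 14.8% and 14.8% in the first of these bins and 36.4%, 39.3% and 37.6% in the other. This contrast was also picked after the values were seen, and the IDR list was made from the same replicates. The separation of the 2 bins is thus partly built in. In the IDR list these were the lowest and the highest of the bins up to 400 bp. Its wider bins had 34.7% (250 to 300 bp), 37.6% (300 to 350 bp) and 25.3% (350 to 400 bp). Its closer bins had 19.9% (up to 50 bp), 23.8% (50 to 100 bp) and 25% (100 to 150 bp). For pooled regions of any strength the bin at 150 to 200 bp was a dip. Such regions were at 55.8%, 67.3% and 61.1% of pairs in the closer bins, 47.0% at 150 to 200 bp and 71.5% at 200 to 250 bp. Over the wide bins such regions were present at 59.2% of pairs at up to 200 bp and 66.3% at 200 to 400 bp. At 600 to 800 bp 2.21% of 271 pairs had an IDR summit and at 800 to 1000 bp 0 of 193, where the window within 500 bp of both starts shrinks to at most 400 and 200 bp.

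**Figure D4:**
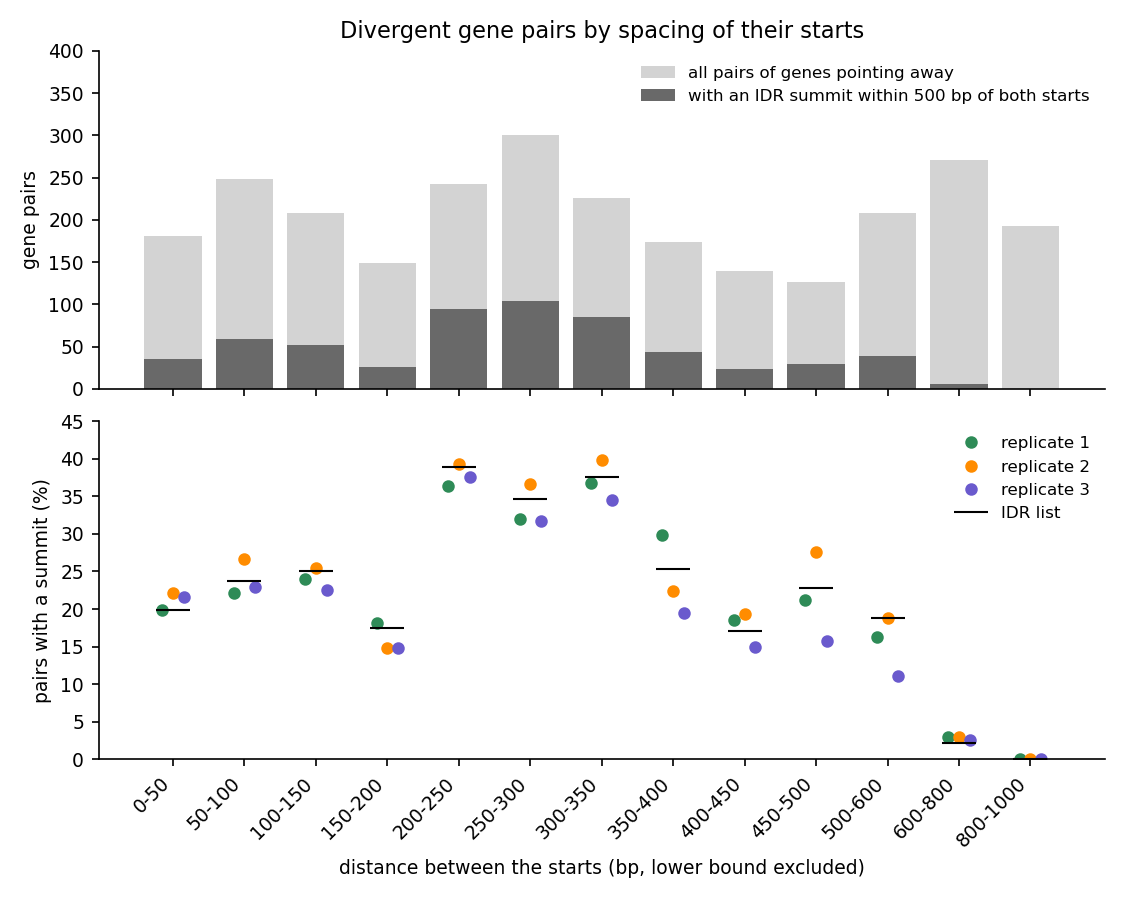
Divergent gene pairs by the distance between their starts in bp: the upper panel counts all 2667 pairs (grey) and the 598 with an IDR summit (dark), and the lower panel gives the percentage with a summit in the IDR list (bars) and in the highest regions of each of the 3 replicates (points). The share is 17.4% at 150 to 200 bp and 38.8% at 200 to 250 bp, the lowest and the highest of the bins up to 400 bp. The last 3 bins are wider than the others.

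The chromosome arms differed in how many of their pairs carried a peak. On the X, 63 of 403 divergent pairs (15.6%) had an IDR summit, against 535 of 2253 (23.7%) on the 4 large autosome arms. The replicates gave 16.6%, 16.4% and 12.9% on the X and 22.9%, 24.7% and 21.4% on the autosome arms. The X was lower in each, by a difference of -7.69 percentage points ± 1.26 (SD, n = 3, exact p = 0.25). Any region of the pooled list was found at 49.4% of pairs on the X and 50.8% on the autosome arms. The X also gave 64 of its 680 IDR peaks (9.41%) to pairs, and 3R, at the other end, 178 of 857 (20.8%). Chromosome 4 had 11 divergent pairs and 11 IDR peaks, and 0 pair peaks.

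Of the 16 gene lists, that of cytosolic ribosomal proteins, the subunits of the ribosome outside the mitochondria, had the most genes in pairs with a peak. Over all 13945 protein-coding genes 1108 (7.95%) were in the pair of a peak, and over the 5052 genes of any divergent pair 1105 (21.9%). Of 93 cytosolic ribosomal protein genes 30 (32.3%) were in the pair of a peak, and 30 of the 56 (53.6%) that had a divergent neighbour. With one-way peaks included, 65 of the 93 had an IDR summit near a start, by the same distance, against 15% of all coding genes. Of the 30, 25 were recovered by all 3 replicates. RpL7, the strongest, shares a stretch of 30 bp with Ripalpha, which encodes a partner of replication protein A. Its peak of 714.5 ranked 35, 85 and 73, with the summit 31 bp inside RpL7. RpS27, whose partner is the nucleoporin gene Nup37, had a peak of 669.5 that ranked 40, 77 and 92. RpL32 and RpL34b followed at 508.4 and 503.9, and RpL29 was the weakest at 101.6.

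At these pairs the summit sat beside the ribosomal protein gene. It was nearer that gene's start than the partner's in 25 of 30, at a median of 51.5 bp against 223.5 bp. The replicates' own summits at the same peaks, which are not independent of the IDR summits, gave 23 of 29, 27 of 30 and 25 of 30. For RpS27 the distances were 11 and 133 bp, for RpL14, whose partner is Nelf-E of the negative elongation factor, 22 and 105 bp, and for RpS25 52 and 196 bp. The 13 mitochondrial ribosomal protein genes in pairs had no such lean, with the summit nearer their own start in 6 and medians of 147 bp to it and 121 bp to the partner. In some smaller lists the summit was also mostly nearer the listed gene. It was so in 4 of 5 cell cycle, 4 of 5 proteasome, 4 of 5 translation factor and 7 of 11 oxidative phosphorylation genes. The counts were 4 of 7 for aminoacyl-tRNA synthetases, 3 of 5 for splicing and 4 of 8 for DNA replication. For RNA polymerase, Mediator and general transcription factors it was 6 of 13, and for insulator, interband and housekeeping promoter factors 2 of 7. No test of the difference between the lists was made.

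The other housekeeping lists lay nearer to the share of all genes in divergent pairs (21.9%). Mitochondrial ribosomal proteins had 13 of 75 genes in the pair of a peak, or 13 of the 59 in divergent pairs (22.0%), led by mRpS10 and mRpS23. Oxidative phosphorylation had 11 of 89, or 24.4% of those in divergent pairs, led by the complex I subunit ND-MWFE at 395.1. RNA polymerase, Mediator and general transcription factors had 13 of 79, or 24.1% of the 54 in divergent pairs. The Mediator subunits MED30 at 388.6 and MED27 at 352.5 led them. Aminoacyl-tRNA synthetases had 7 of 33, or 30.4% of the 23 in divergent pairs, led by SerRS at 312.2. Proteasome subunits had 5 of 48, or 19.2% of the 26 in divergent pairs, led by Rpn5 at 321.8. Translation factors had 5 of 61, or 16.7% of the 30 in divergent pairs. They were led by eIF1 at 332, whose partner is RpL28. Splicing had 5 of 33, or 17.9% of the 28 in divergent pairs, led by SF2 at 184.4.

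Genes of the processes in which Chiffon and its partners act had shares near that of all genes in divergent pairs. DNA replication had 8 of 51 genes in the pair of a peak, or 23.5% of those in divergent pairs. The strongest were dpa at 241.7, dup, which encodes the licensing factor Cdt1, at 230.9, the ribonucleotide reductase subunit gene RnrS at 178.3, and Ctf4 at 177.8. Cdc7, the kinase that Dbf4 proteins activate, shares its stretch with CG3226. Its peak of 142.8 ranked 1263, 1581 and 4257, so replicate 3 placed it below its highest 3684 regions. Cell cycle regulators had 5 of 44, with the checkpoint gene Bub3 at 197.4 and the mitotic kinase gene aurA at 186.1. SAGA, ATAC and CHAT subunits had 4 of 29. Gcn5, the acetyltransferase, had a peak of 208.1 that ranked 903, 1652 and 771, Ada3 one of 181.8, e(y)2 one of 105.5 and Sgf29 one of 101.6.

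Insulator, interband and housekeeping promoter factors had 7 of 24 genes in the pair of a peak, 7 of the 14 in divergent pairs (50%). Chro was the strongest at 1408.9. Dref, the factor that binds the DRE, had a peak of 274 with RpL13 as its partner that ranked 661, 509 and 494. Cp190, an insulator cofactor, followed at 265.9 (ranks 926, 473 and 419), pzg, a partner of Dref, at 195.8, and Zaf1 at 106.7. Of the 7, 4 were recovered by all 3 replicates, and M1BP and BRWD3, at 97.4 and 95.9, were among the highest regions of 1 each.

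Few genes of the tissue and patterning lists were in the pair of a peak, where the share over all coding genes was 7.95%. Hox and segmentation genes had 1 of 32, nanos, at 116.3 beside CG11779. The neuronal, muscle and early zygotic lists had 0 of 24, 0 of 20 and 0 of 11. Few of these genes had a divergent neighbour at all: 1 Hox or segmentation gene, 2 neuronal, 4 muscle and 0 early zygotic genes. These are too few to set against the 21.9% over all genes in divergent pairs. In 0 pairs did both genes come from the same list.

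**Figure D5:**
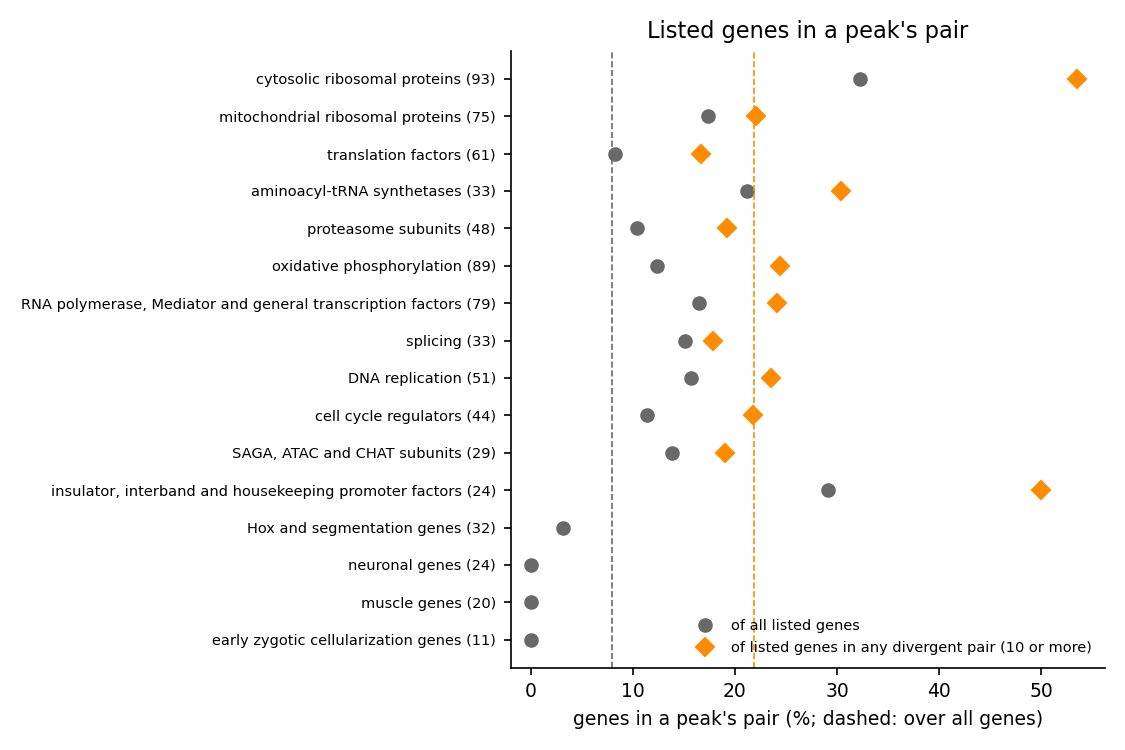
Percentage of the genes of each of 16 lists that were in the pair of a peak, over all listed genes (circles; list size in brackets) and over those with a divergent neighbour (diamonds, for lists with 10 or more such genes). The dashed lines are the same shares over all coding genes, 7.95% and 21.9%; cytosolic ribosomal proteins at 53.6% and insulator, interband and housekeeping promoter factors at 50% lie farthest to the right.

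Sequence motifs were counted within 100 bp of each summit, on both strands, as a description. The DRE core ATCGATA was present at 106 pair peaks (17.9%), 11.1% of one-way promoter peaks and 6.87% of all IDR peaks. In the replicates' highest regions it was found at 19.8% ± 0.710 (SD, n = 3) of pair regions and 10.8% ± 0.518 of one-way regions. The same motif was in 18.6% of equally long windows at the midpoints of divergent pairs with an IDR summit, 16.9% of those without and 21.6% of lower-ranked regions at gene pairs. Among gene pairs the share thus varied little with the presence of a peak. Of the 106 peaks with a DRE core, 66 had it within 50 bp of the summit. Pair peaks with and without it had a median signal value of 150.85 and 158.5.

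Motif 7, CAGCNCT, was at 19.2% of pair peaks and 13.8% of one-way peaks, and at pair midpoints it was in 15.4% with an IDR summit and 9.86% without. The E-box CAGCTG was at 16.7% of pair peaks, 10.2% of one-way peaks and 15.8% of lower-ranked regions at gene pairs, and in 14.2% of pair midpoints with an IDR summit and 12.3% without. GAGAGAG, the repeat that GAGA factor binds, went the other way: 6 pair peaks (1.01%) held it against 5.63% of one-way peaks. In the replicates it was at 0.530%, 1.15% and 1.72% of pair regions and 5.91%, 6.29% and 6.60% of one-way regions, which did not overlap. At the midpoints of all divergent pairs it was in 2.32%. Motif 1, GGTCACACT, was at 4.55% of pair peaks, 2.58% of one-way peaks and 7.62% of lower-ranked regions at gene pairs. The differences between pair and one-way regions depended on the length searched. Over the replicates the mean difference for Motif 7 was 5.89 percentage points within 100 bp of the summit, 1.56 within 50 bp and 11.4 within 250 bp. For the E-box it was 5.28, 1.82 and 13.7, for the DRE core 8.98, 4.98 and 18.3, and for GAGAGAG -5.13, -2.32 and -15.7. The letters TATAAA were at 35.8% of pair peaks, 27.9% of one-way peaks, 32.4% of peaks without a coding start and 39.8% of all pair midpoints. In the replicates' highest regions they were at 36.7% ± 1.05 (SD, n = 3) of pair regions and 26.4% ± 2.88 of one-way regions.

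Few pair peaks had the start of a noncoding gene nearby, and the share over all divergent pairs was not measured. Of the 593, 0 had a tRNA gene start within 500 bp of the summit, 3 a snoRNA start and 9 a start of a longer noncoding RNA. One-way promoter peaks had 7, 4 and 63 of 1048, so for snoRNA starts the share was not lower at pair peaks. The window of 500 bp itself divided few strong peaks. The peaks just inside it had a farther start at 481 bp (tank/CG12194, signal value 793.1), 491 bp (E(bx)/mthl14, 141.6), 498 bp (crp/pkaap, 204.1) and 499 bp (step/CG1416, 171.4). Just outside lay Rok/RpS19a at 501 bp (153.8), CG3735/Taldo at 502 bp (110.1), Gnpat/CG5112 at 508 bp (96.9) and Mpc1/CG42613 at 509 bp (147.7).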

How the data were processed

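The deposited files are region lists in narrowPeak format. Per the labels the assemblies are dm6 and dm3, and the dm6 lists were used. The signal value is the authors' score and the −log10 q-value is the authors' deposited value. The latter was not used to choose or rank regions and is given only for the last of each replicate's highest regions. The summit offset in bp was taken from the deposited lists. Aligner, peak caller and threshold of the IDR step: not given in the sources used here. Per the deposited file listings, the pooled list was made from all 3 replicates with a control alignment. The lists leave 0 sample columns unused.

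Gene models were those of Ensembl release 115 (BDGP 6.54), and sequence came from the RefSeq copy of dm6. Overlap needed 1 bp. Replicate values used the 3684 strongest regions of each list. Scripts ran in Python 3.11.15 with numpy 2.4.6 and matplotlib 3.10.9. As a check of the code, simulated summits were placed inside or outside the windows of the rule. The code found 200 of 200 pair summits and kept out 200 of 200 others. This outcome follows from the placement and does not measure recovery in the data.

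The members, the 16 gene lists and the 11 motifs were chosen with earlier results of these data known. Of the listed symbols, 12 did not match and were left out. Named pairs were the 20 strongest found in all 3 replicates, the strongest of each list, those at the window's edge and those of extreme spacing; a few others were chosen after their values were seen. Alternatives covered the window, the choice of starts and pair, the stronger part of the list and leaving out each replicate.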

Additional observations from a re-analysis of the deposited data

How the results depend on the processing

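Of 63 alternative values, 62 kept their direction and 1 reversed. Those that are counts of peaks or shares of summits cannot reverse, nor can those that leave out a replicate. Of the 62, 15 differed from the reported value by more than 1.5 times, 0 of them on leaving out a replicate. A window of 250 bp left 374 pair peaks, and the stronger part of the IDR list held 339. In that stronger part the difference in median rank between pair and one-way regions was 0.190 percentage points, against -3.87 in the full lists, and the cause was not tested. With a 250 bp window this difference was -10.9, and that in pairs with a summit between the wider and closer spacing 6.29 against 11.9. The difference in recovery was 1.00 against 4.92 when regions of any rank counted. The GC difference was -1.78 within 250 bp of the summit and -1.77 with a promoter window of 1000 bp, against -2.68. The differences in motif shares shrank within 50 bp of the summit and grew within 250 bp, for DRE core, E-box, Motif 7 and GAGAGAG alike. The share of summits between the starts was 94.4% where each peak was given its most widely spaced pair. It was 82.3% with a window of 1000 bp and 78.0% with the outermost start of each gene, both chosen after the data were seen. Leaving out each replicate in turn could change no direction, because every difference already had the same sign in all 3 replicates. Each difference was taken within a replicate, since all replicates belong to 1 group. With 3 replicates the smallest p is 0.25, the signal value has no stated scale, and without counts the depth of each library is unknown. No untagged library was analysed here, so regions recovered without the tagged protein cannot be told apart from the others.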
